A study of Mus musculus with 3 samples.

Results

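RNA splicing regulators were described in differentiating C2C12 cells, in which the long non-coding RNA Linc-RAM had been raised or lowered. The members were taken by symbol alone, as every listed gene of the Hnrnp or Hnrp, Srsf or Sfrs, Mbnl, Celf or Cugbp and Ptbp families together with Rbfox2, Rbm24, Rbm38, Rbm20 and Qk. This gave 48 of the 22068 listed genes. Of these, 14 were muscle splicing regulators (Mbnl, Celf, Rbfox2, Rbm20, Rbm24, Rbm38 and Qk), 32 belonged to the general families (20 hnRNP and 12 SR genes) and 2 belonged to the PTB family.

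C2C12 is a mouse myoblast line that fuses into myotubes when serum is reduced. All cells were transduced with a lentivirus, selected with blasticidin and collected 12 h after the change to differentiation medium. The 3 stable lines carried Linc-RAM (overexpression), a short hairpin RNA against Linc-RAM (knockdown) or an empty vector (control), with 1 polyadenylated RNA library for each. The study's methods place Linc-RAM in a vector with a CMV promoter and EGFP and the hairpins behind a U6 promoter, and the labels do not say which hairpin was sequenced or whether a line was 1 clone. With 1 library per condition, every difference described is one between libraries that no replicate can check. The 2 comparisons with the control share that library.

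Most mammalian genes are spliced in more than one way, and proteins that bind the pre-mRNA decide which exons are kept. SR proteins carry RNA recognition motifs and an arginine-serine tail and mostly promote the use of an exon, whereas many hnRNP proteins, the PTB proteins among them, promote its skipping. In muscle, MBNL proteins favour adult splice forms and CELF proteins favour embryonic ones, and RBFOX2, QKI, RBM24, RBM38 and RBM20 regulate exons of muscle and heart transcripts. Many of these genes also regulate their own level through exons that send the transcript to nonsense-mediated decay.

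The deposited values are RPKM, read counts scaled by gene length and by the reads of the library. Levels of genes and libraries are set side by side on that scale. The gene lengths used and the treatment of multiply mapped reads are not given, and the main values have no further scaling for the make-up of a library. The read totals recovered from the RPKM values were 2105513 for overexpression, 1878146 for knockdown and 5130481 for the control. The control was thus the deepest library, and the median tested gene held 37, 32 and 88 reads in the overexpression, knockdown and control libraries. Linc-RAM itself, listed as 2310015B20Rik, had 1 read with overexpression and none with knockdown or in the control, too few to check the labels by. Most genes of a list of 10 myoblast genes were present (Des at 386, 145 and 291 RPKM and Myod1 at 34.1, 9.76 and 16.7 RPKM in the overexpression, knockdown and control libraries). They did not move together. Pax7 was at 2.78, 5.36 and 0.228 RPKM from 25, 43 and 5 reads, highest with knockdown, and Cav3 was listed at 0 throughout. Of the 9 tested, knockdown put 1 past 2-fold above the control and 2 below it, beside 3.38% and 4.19% of all genes tested. Overexpression put 4 above it and 0 below it, beside 3.64% and 3.47%. Of 9 late myotube genes, 5 (Ckm, Myh1, Myh2, Myh3 and Myh4) were listed at 0 throughout and the list summed to 8.55, 1.96 and 2.10 RPKM, highest with overexpression, as Acta1 was at 3.98, 1.49 and 1.09 RPKM. The 10 fibroblast and tenocyte markers summed to 220, 213 and 217 RPKM, of which Col3a1 made up 167, 148 and 163 RPKM, and Lum, Tcf21, Thy1 and Tnmd were listed at 0. Others of this list differed between libraries, with Postn at 9.95, 21.2 and 19.8 RPKM, Pdgfra at 2.68, 6.56 and 3.39 RPKM and Dcn at 4.33, 0.766 and 1.12 RPKM. The 11 neuron and glia markers summed to 94.7, 20.5 and 26.9 RPKM, nearly all of it Tubb3 at 92.6, 19.8 and 26.2 RPKM, while Rbfox3, Nova1, Elavl3, Elavl4 and Gfap were listed at 0. The part of these cell type markers in the results was not tested.

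Of the 48 members, 41 had a mean of at least 1 RPKM over the 3 libraries and were compared. These were 10 of 14 muscle regulators, 18 of 20 hnRNP genes, 11 of 12 SR genes and both PTB genes. The summed level of the tested hnRNP genes was 680, 639 and 656 RPKM in the overexpression, knockdown and control libraries, that of the SR genes 267, 256 and 258 RPKM, and that of the muscle regulators 126, 141 and 126 RPKM. The general families stood higher than the muscle regulators by their medians, but the ranges overlapped. By the mean of the 3 libraries, Rbfox2 (37.0 RPKM) and Mbnl1 (31.9 RPKM) stood above most SR genes. In such bulk RNA, fewer cells that express a gene and less of its RNA in each cell cannot be told apart. The median hnRNP gene had 36.0 RPKM with overexpression, 34.8 with knockdown and 32.1 in the control, the median SR gene 20.3, 22.9 and 20.1, and the median muscle regulator 7.36, 6.14 and 6.91.

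**Figure D1:**
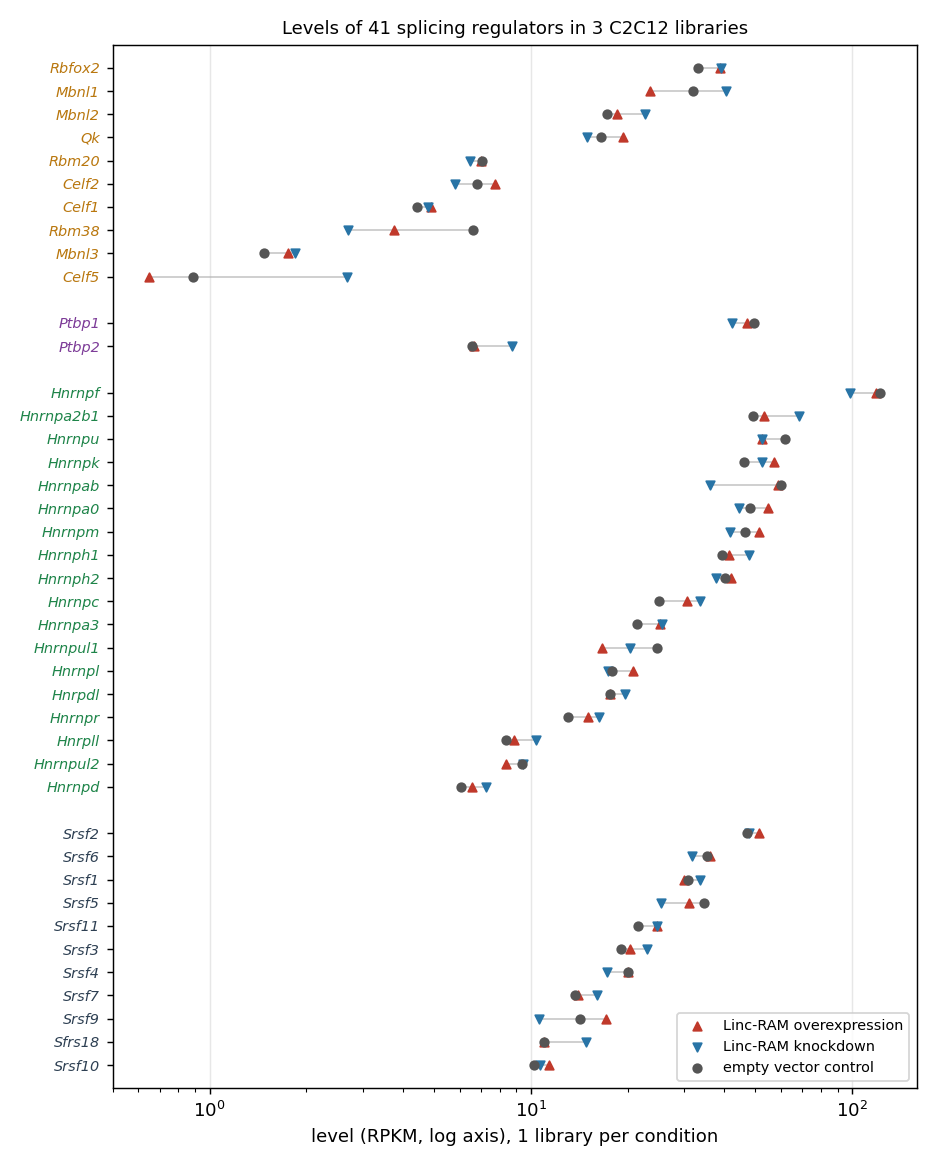
Level of each of the 41 tested splicing regulators in RPKM (log axis) in the Linc-RAM overexpression (triangles up), Linc-RAM knockdown (triangles down) and empty vector control (circles) libraries, 1 library each, ordered by mean level within each family. The 3 symbols of most genes lie close together, and the widest gaps are those of Celf5 (0.649, 2.67 and 0.888 RPKM) and Rbm38 (3.75, 2.70 and 6.59 RPKM).

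The muscle regulators spanned a wide range of levels. Rbfox2 and Mbnl1 were the most abundant and Mbnl3 and Celf5 the least abundant of those tested. In the control the order began with Rbfox2 and Mbnl1, which did not differ beyond counting error (ratio of levels 1.04, 95% interval 0.954 to 1.13), followed by Mbnl2 and Qk, which did not differ either (1.05, 0.931 to 1.18). With overexpression Rbfox2 stood above Mbnl1 by a factor of 1.66 (1.44 to 1.92), and with knockdown Mbnl1 and Rbfox2 were again level (1.03, 0.907 to 1.18). Below them came Rbm20, Celf2, Rbm38 and Celf1. All intervals given here are exact (Clopper-Pearson), come from the recovered reads and cover counting error only.

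Mbnl1 differed between the 2 Linc-RAM lines. It encodes a zinc finger protein that drives the adult splicing programme of muscle and is sequestered in myotonic dystrophy, and it lies on chromosome 3 of mm9 from 60277032 to 60433670. Mbnl1 was at 23.4 RPKM with overexpression, 40.4 RPKM with knockdown and 31.9 RPKM in the control, from 275, 423 and 912 reads. The overexpression library was the lowest and the knockdown library the highest. Its ratio to the control was 0.735 with overexpression (0.640 to 0.842) and 1.27 with knockdown (1.13 to 1.42), and the direct ratio of overexpression to knockdown was 0.580 (0.496 to 0.677). None of these 3 ratios reached 2-fold, the criterion of the study's methods.

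Mbnl2, the paralogue of Mbnl1 that is best known from brain, showed less. It was at 18.5, 22.6 and 17.3 RPKM in the overexpression, knockdown and control libraries, so it too was highest with knockdown (1.30 of the control, 1.09 to 1.55), while its direct ratio of overexpression to knockdown was 0.818 (0.663 to 1.01). Mbnl1 made up 55.9% of the summed Mbnl1 and Mbnl2 level with overexpression, 64.1% with knockdown and 64.8% in the control. Mbnl3, which in mouse is linked to proliferating myoblasts, was low at 1.75, 1.84 and 1.48 RPKM, and all 3 of its intervals included a ratio of 1.

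The CELF genes encode RNA binding proteins that act against MBNL on many exons. Celf1 was at 4.89 RPKM with overexpression, 4.79 RPKM with knockdown and 4.43 RPKM in the control. Neither ratio to the control, 1.10 (0.651 to 1.82) with overexpression or 1.08 (0.620 to 1.83) with knockdown, differed from 1 beyond counting error. Celf2 was at 7.73, 5.82 and 6.78 RPKM in the same order, with a direct ratio of overexpression to knockdown of 1.33 (1.03 to 1.72). Celf2 thus stood in the reverse order to Mbnl1, highest with overexpression and lowest with knockdown, but its ratios to the control of 1.14 (0.937 to 1.38) and 0.858 (0.682 to 1.07) included 1.

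Celf5, a CELF gene best known from the nervous system, had the largest ratio of all tested members, on few reads. It lies on chromosome 10 from 80921972 to 80945454 and was at 0.649, 2.67 and 0.888 RPKM in the overexpression, knockdown and control libraries, from 3, 11 and 10 reads. The knockdown library was the only one above 1 RPKM, and it alone carried Celf5 past the filter on the mean. With knockdown the log2 ratio to the control was 1.59 (95% interval of the ratio itself 1.16 to 7.89), with overexpression the ratio was 0.731 (0.129 to 2.84), and the direct ratio of overexpression to knockdown was 0.243 (0.0436 to 0.921). With 1 RPKM added to each value the ratio of knockdown to control was 1.94 and no longer past 2-fold. Celf4 was listed at 0.685, 0.0960 and 0.316 RPKM from 8, 1 and 9 reads and was not tested. Celf3 was listed at 0 throughout, and Celf6 had 1 read, in the control, where 0 reads in the Linc-RAM lines allow up to 0.515 RPKM with overexpression and 0.578 RPKM with knockdown.

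Rbm38 and Rbm24 encode closely related proteins with 1 RNA recognition motif that act in myogenic differentiation, Rbm38 also being a target of p53 that stabilises the mRNA of the cell cycle inhibitor p21. Rbm38 was at 3.75 RPKM with overexpression, 2.70 RPKM with knockdown and 6.59 RPKM in the control, from 14, 9 and 60 reads. Both Linc-RAM lines were below the control, the knockdown line at 0.410 (0.179 to 0.831) and the overexpression line at 0.569 (0.293 to 1.03). The direct ratio of overexpression to knockdown was 1.39 (0.559 to 3.63), so the lines did not differ from each other beyond counting error. Rbm24 was listed at 0.589, 0.991 and 0.423 RPKM from 4, 6 and 7 reads, and no difference was detectable at this depth.

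The other muscle regulators lay closer to the control. Rbfox2, which binds the motif GCATG and acts with MBNL in muscle, was at 38.9 RPKM with overexpression, 39.1 RPKM with knockdown and 33.1 RPKM in the control, 1.17 (1.06 to 1.29) and 1.18 (1.06 to 1.31) times the control. Qk, whose protein QKI is a STAR-type regulator of muscle exons, was at 19.4, 14.9 and 16.5 RPKM, with a direct ratio of overexpression to knockdown of 1.30 (1.11 to 1.52). Rbm20, which controls titin splicing in heart, was at 6.99, 6.46 and 7.04 RPKM, or 0.993 (0.776 to 1.26) and 0.918 (0.704 to 1.19) times the control, intervals that include 1.

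Among the PTB genes, Ptbp1 represses many exons in non-neuronal cells and Ptbp2 replaces it in neurons. Ptbp1 was at 47.1, 42.3 and 49.4 RPKM in the overexpression, knockdown and control libraries, and stood at 0.855 of the control with knockdown (0.735 to 0.992). Ptbp2 was at 6.64, 8.71 and 6.55 RPKM and at 1.33 of the control with knockdown (0.945 to 1.85). Ptbp1 exceeded Ptbp2 by a factor of 7.10 with overexpression, 4.86 with knockdown and 7.55 in the control. Exons of Ptbp1 overlap those of BC005764 on the other strand, at 5.67, 2.74 and 3.74 RPKM, and of E130317F20Rik, at 1.59, 0.741 and 1.95 RPKM, and the strand setting of the counting is not given. Ptbp3 is not listed under that symbol. Its older symbol Rod1, looked up after the values were seen, was at 14.8, 11.4 and 12.2 RPKM, 1.21 (1.02 to 1.43) and 0.936 (0.771 to 1.13) times the control.

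Of the hnRNP genes, 18 were tested and none passed 2-fold in any comparison. Their ratios to the control lay between −0.56 and 0.32 on the log2 scale with overexpression and between −0.74 and 0.48 with knockdown. Hnrnpf, a splicing factor of G-rich motifs, was the most abundant member of all at 119, 98.3 and 122 RPKM in the overexpression, knockdown and control libraries. It was lowest with knockdown, at 0.807 of the control (0.733 to 0.888). Hnrnpu, a scaffold protein of nuclear RNA, was at 52.3 RPKM with overexpression and 52.5 RPKM with knockdown against 61.7 RPKM in the control, with ratios of 0.848 (0.755 to 0.950) and 0.852 (0.755 to 0.959).

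With knockdown, Hnrnpab was the lowest and Hnrnpa2b1 the highest hnRNP gene relative to the control. Hnrnpab, which encodes an RNA binding protein of the A/B type, lies on chromosome 11 from 51412372 to 51420349 and was at 58.8 RPKM with overexpression, 36.0 RPKM with knockdown and 60.2 RPKM in the control. The knockdown library was the low one, at 0.598 of the control (0.504 to 0.706), and overexpression was at 0.977 (0.854 to 1.11), so that the direct ratio of overexpression to knockdown was 1.63 (1.35 to 1.98). Agxt2l2, which overlaps Hnrnpab on the other strand, was at 0.250, 0.562 and 0.514 RPKM from 1, 2 and 5 reads. Hnrnpa2b1, a repressor of exons and a carrier of RNA in the cytoplasm, was at 53.2, 68.4 and 49.1 RPKM, highest with knockdown at 1.39 of the control (1.25 to 1.55). The level of Hnrnpa2b1 was 0.906 of that of Hnrnpab with overexpression, 1.90 with knockdown and 0.816 in the control.

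Hnrnpul1, a relative of Hnrnpu, was the lowest of the general families with overexpression. It was at 16.7, 20.3 and 24.6 RPKM in the overexpression, knockdown and control libraries, 0.679 (0.543 to 0.843) and 0.825 (0.665 to 1.02) times the control. Hnrnpc, which binds uridine tracts and shields cryptic exons, was above the control in both lines at 30.6, 33.7 and 25.0 RPKM, with ratios of 1.22 (1.02 to 1.46) and 1.35 (1.12 to 1.61). Hnrnpk, a binder of C-rich RNA, was at 57.1, 52.2 and 45.9 RPKM, with intervals against the control that included 1 (1.24, 0.989 to 1.56, and 1.14, 0.888 to 1.45). Its reads were recovered at 989 bases, the smallest length that fitted. They are lower estimates, so these intervals may be too wide and cannot settle whether Hnrnpk differed from the control. Hnrnpul2, another relative of Hnrnpu, stood at 8.38, 9.48 and 9.40 RPKM. Hnrnpa0 had a direct ratio of overexpression to knockdown of 1.24 (1.04 to 1.47), at 54.8, 44.3 and 48.0 RPKM.

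Hnrnpa1 and Hnrnph3 were near 0. Hnrnpa1 encodes one of the best studied splicing repressors, and it was listed at 0, 0.278 and 0.102 RPKM in the overexpression, knockdown and control libraries, from 0, 1 and 1 reads, where 0 reads allow up to 0.743 RPKM. Gapdh, looked up after the values were seen because its coding sequence has many genomic copies, was at 60.9, 36.3 and 35.3 RPKM. How reads that map to more than 1 place were treated is not given. A search of mm9 with the longest annotated coding sequence of each member found 2 places outside the Hnrnpa1 gene (chromosome 15, 103070945 to 103074445) that matched at least 80% of it at an identity of at least 95%, with 98.8% for the closest. The stretch of bases 151 to 240 of the coding sequence is shown with the same stretch of one of these copies (chromosome 19 of mm9, 24365077 to 24365166, minus strand). This copy is not the closest one and had an identity of 97.1% over its whole match. The pair shows how few bases can separate them within 1 stretch, with the differing base in capitals.
Hnrnpa1 coding sequence: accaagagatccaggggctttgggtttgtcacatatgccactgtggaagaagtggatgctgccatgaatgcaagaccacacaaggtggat
Hnrnpa1 copy: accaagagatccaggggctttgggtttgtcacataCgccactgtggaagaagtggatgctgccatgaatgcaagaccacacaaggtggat
Over the 90 bases, 1 differed. Hnrnpa3 had 20 such copies on 13 chromosomes and was at 25.2, 25.5 and 21.4 RPKM. At least 1 copy was found for 10 of 48 members, and for none of the 14 muscle regulators. These 10 were 6 hnRNP genes (Hnrnpa1, Hnrnpa3, Hnrnpf, Hnrnph2, Hnrnpk and Hnrnpr), 3 SR genes (Srsf3, Srsf5 and Srsf10) and 1 PTB gene (Ptbp1). The part of such copies in any value was not tested, and the values of those 10 genes are uncertain to the extent that reads could be shared. Hnrnph3 had no copy and was listed at 1.10, 1.47 and 0.360 RPKM from 5, 6 and 4 reads, and its exons overlap those of Rufy2 on the other strand (4.09, 5.54 and 3.56 RPKM).

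Of the SR genes, none of the 11 tested passed 2-fold in any comparison, and their log2 ratios lay between −0.15 and 0.27 with overexpression and between −0.44 and 0.42 with knockdown. Srsf2, which promotes exon inclusion and acts in transcriptional pause release, was the most abundant at 51.2, 47.8 and 47.2 RPKM in the overexpression, knockdown and control libraries, or 1.08 (0.915 to 1.28) and 1.01 (0.845 to 1.21) times the control. Its exons overlap those of Mfsd11 on the other strand (7.50, 6.17 and 5.59 RPKM). Srsf6 at 36.2, 31.8 and 35.4 RPKM and Srsf1, the prototype of the family, at 30.0, 33.7 and 30.8 RPKM came next and also had intervals that included 1.

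Only Srsf5 and Sfrs18 among the SR genes had an interval against the control that left out 1, both with knockdown. Srsf5 was at 31.0, 25.4 and 34.5 RPKM and at 0.737 of the control with knockdown (0.567 to 0.947). Sfrs18, an arginine-serine rich protein now called Pnisr, was at 11.0, 14.8 and 11.0 RPKM and at 1.34 of the control with knockdown (1.07 to 1.66), and its direct ratio of overexpression to knockdown was 0.743 (0.568 to 0.971). Srsf9 was at 17.1, 10.6 and 14.2 RPKM from 45, 25 and 91 reads, and its direct ratio of 1.61 had an interval of 0.964 to 2.73. Srsf12 was listed at 0 in all 3 libraries.

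**Figure D2:**
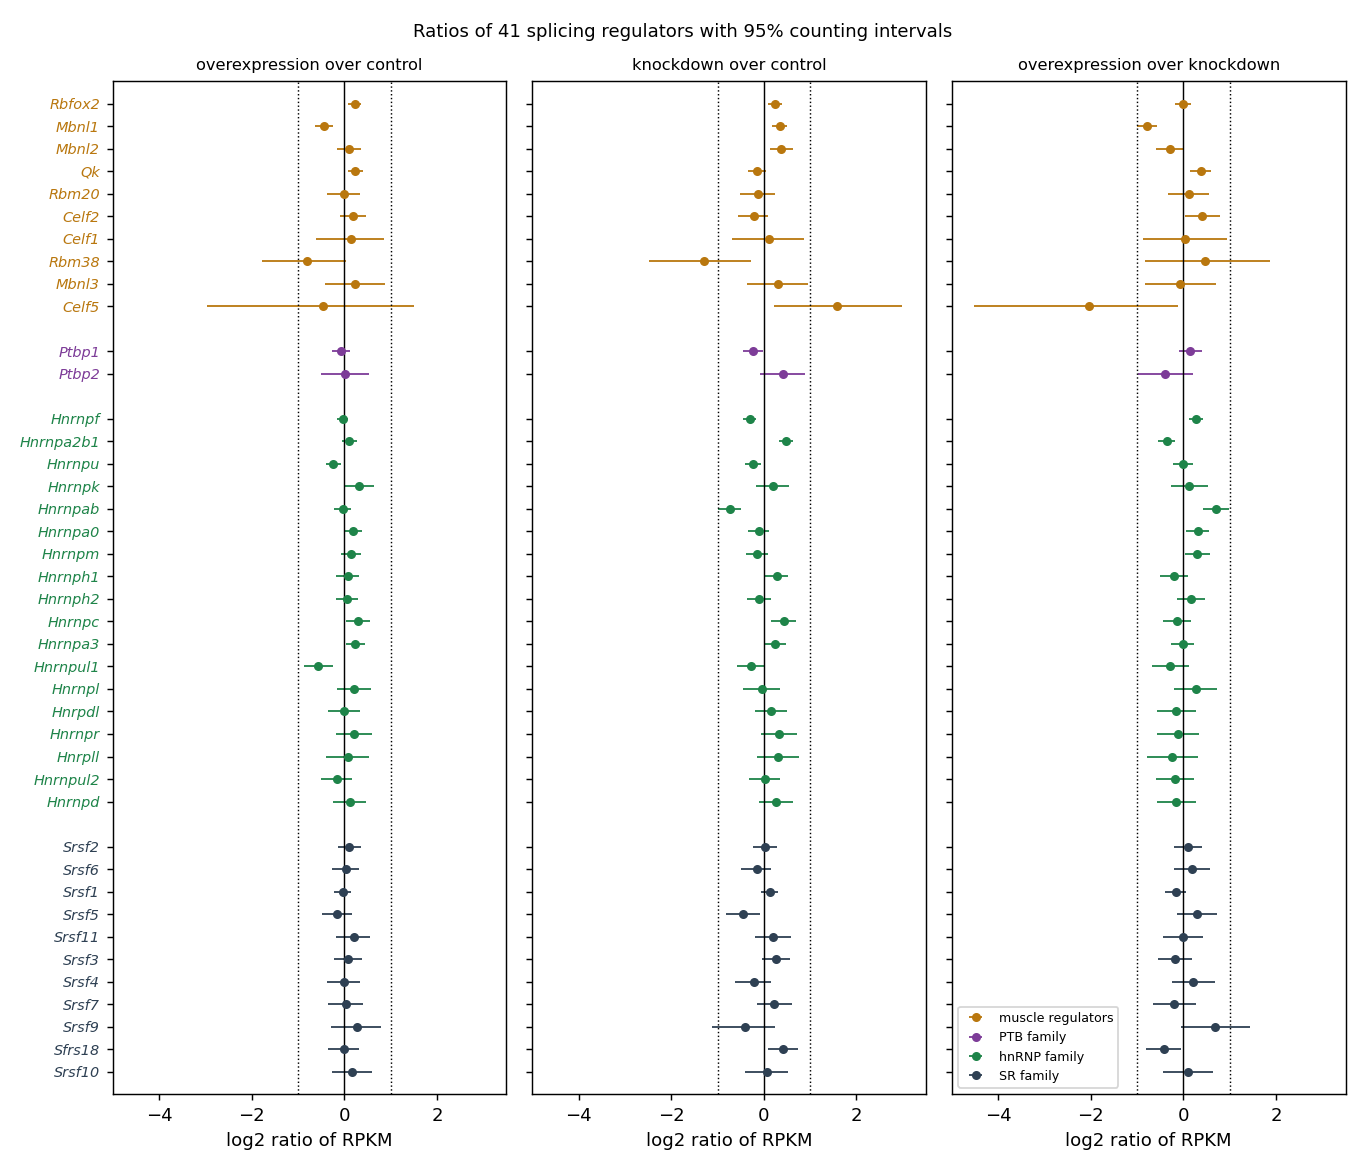
Log2 ratio of RPKM for each of the 41 tested members (points) with its 95% counting interval (bars), for overexpression over control, knockdown over control and overexpression over knockdown. Dotted lines mark 2-fold, and the only points beyond them are Celf5 (1.59) and Rbm38 (−1.29) in knockdown over control and Celf5 (−2.04) in overexpression over knockdown.

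In overexpression over control, 0 of the 41 tested members were at least 2-fold higher or lower, where 7.11% of all 10165 genes tested were. Most members were well expressed, and calls were fewer among such genes. Of the 37 members with a mean of at least 5 RPKM, 0 passed 2-fold, beside 2.93% of the 5897 genes at that level. No test was possible with 1 library per condition, and 1.5-fold was passed by 1 member, Rbm38, against 20.1% of all genes. The median log2 ratio was 0.12 for the 10 muscle regulators and 0.08 for the 29 general genes, beside 0.00 for all genes. Intervals that left out 1 belonged to 7 of the 41 members, 4 higher (Hnrnpa3, Hnrnpc, Qk and Rbfox2) and 3 lower (Hnrnpu, Hnrnpul1 and Mbnl1), or 17.1% of members and 18.0% of all genes (9.38% higher and 8.59% lower).

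In knockdown over control, 2 of the 41 members passed 2-fold, Celf5 higher and Rbm38 lower, or 4.88% of members beside 7.58% of all genes (3.38% higher and 4.19% lower). At 1.5-fold Hnrnpab was also lower, which made 3 members beside 22.7% of all genes. Celf5 and Rbm38 are muscle regulators of low level, which is also where more genes of the whole table passed 2-fold, since 3.12% of the 5897 genes with a mean of at least 5 RPKM did so. Of the 37 members at that level none passed 2-fold. The median log2 ratio was 0.18 for the muscle regulators and 0.07 for the general genes, beside −0.02 for all genes. Celf5 passed the filter through the knockdown library alone, where it is high. Without it the muscle median was 0.11 and 0 of 9 muscle regulators were past 2-fold higher. The muscle median was 0.06 over the 6 muscle regulators with a mean of at least 5 RPKM. Intervals that left out 1 belonged to 15 of the 41 members (36.6%) and to 19.4% of all genes, or 25.6% of genes with a mean of at least 5 RPKM. The 15 include Celf5 and Rbm38, which are below that level, and an interval is narrower with more reads. Neither share of genes is thus a matched reference for the members. Of the 15, 9 were higher and 6 lower, beside 8.97% and 10.4% of all genes.

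In overexpression over knockdown, which uses no control library, 1 of 41 members passed 2-fold, Celf5, which was lower with overexpression, beside 10.9% of 10146 genes (5.11% lower). Of the 37 members with a mean of at least 5 RPKM, 0 passed it. The shares of all genes in this comparison include many genes below that level, so they are no matched reference for the members. At 1.5-fold there were 4 members, with Hnrnpab and Srsf9 higher with overexpression and Celf5 and Mbnl1 higher with knockdown, or 9.76% of members beside 26.9% of all genes. The interval left out 1 for all of these but Srsf9, so that 3 members met both criteria beside 12.1% of all genes. By the interval alone there were 10 members beside 17.8% of all genes, 6 higher and 4 lower with overexpression, beside 9.64% and 8.17%. The median log2 ratio was 0.01 for the muscle regulators, −0.01 for the general genes and 0.02 for all genes. The muscle regulators lay between −2.04 and 0.47, or between −0.79 and 0.47 without Celf5, and the general genes between −0.43 and 0.71. The values farthest from 0 after Celf5 were those of Mbnl1 and Hnrnpab, both with over 100 reads in each library.

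**Figure D3:**
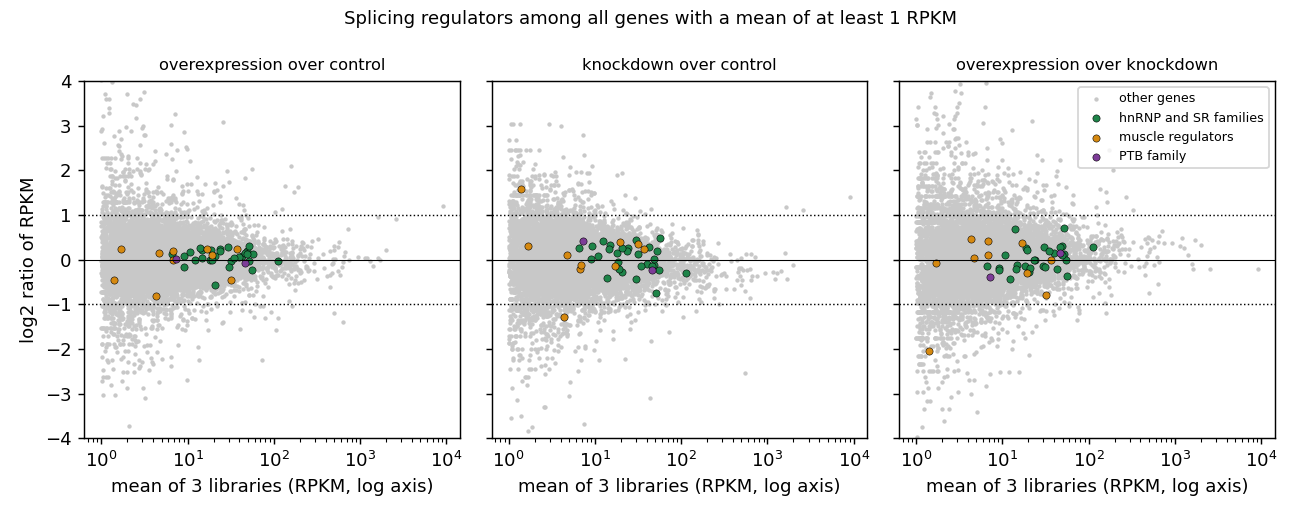
Log2 ratio of RPKM (y axis) against the mean level of the 3 libraries (x axis, RPKM, log axis) for all genes with a mean of at least 1 RPKM in each of the 3 comparisons. Grey points are other genes, coloured points are the 41 splicing regulators and dotted lines mark 2-fold, and 7, 6 and 12 genes lie beyond the y axis in the 3 panels from left to right. The members lie within the grey cloud, and the 3 member points past 2-fold are at a mean below 5 RPKM.

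Muscle genes of differentiation were set beside the splicing regulators. Of 16 tested genes of a list of 26, overexpression put 7 past 2-fold above the control and none below it, and knockdown put 6 below it and none above, where 3.64% of all genes passed above it with overexpression and 4.19% passed below it with knockdown. Their median log2 ratios were 0.93 and −0.52, and 1.44 for overexpression over knockdown (14 genes). Some of these genes rest on few reads and passed the filter through the overexpression library alone, such as Mylpf with 5, 0 and 1 reads. Without Mylpf the counts were 6 and 5, and the medians against the control were 0.91 with overexpression and −0.26 with knockdown. Of the 9 genes with a mean of at least 5 RPKM, 2 were past 2-fold higher with overexpression and 2 past 2-fold lower with knockdown. At that level none of the 37 members passed 2-fold, beside 2.93% and 3.12% of all genes in either direction. The median log2 ratios of these 9 genes were 0.43 and −0.16, and 0.76 for overexpression over knockdown. Myog, the transcription factor of terminal differentiation, was at 22.1 RPKM with overexpression, 3.60 RPKM with knockdown and 3.95 RPKM in the control. Of the 10 members whose interval left out 1 in overexpression over knockdown, Celf5, Hnrnpa2b1, Mbnl1 and Sfrs18 were lower with overexpression, and Celf2, Hnrnpa0, Hnrnpab, Hnrnpf, Hnrnpm and Qk were higher. Whether the state of differentiation had a part in these values was not tested.

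**Figure D4:**
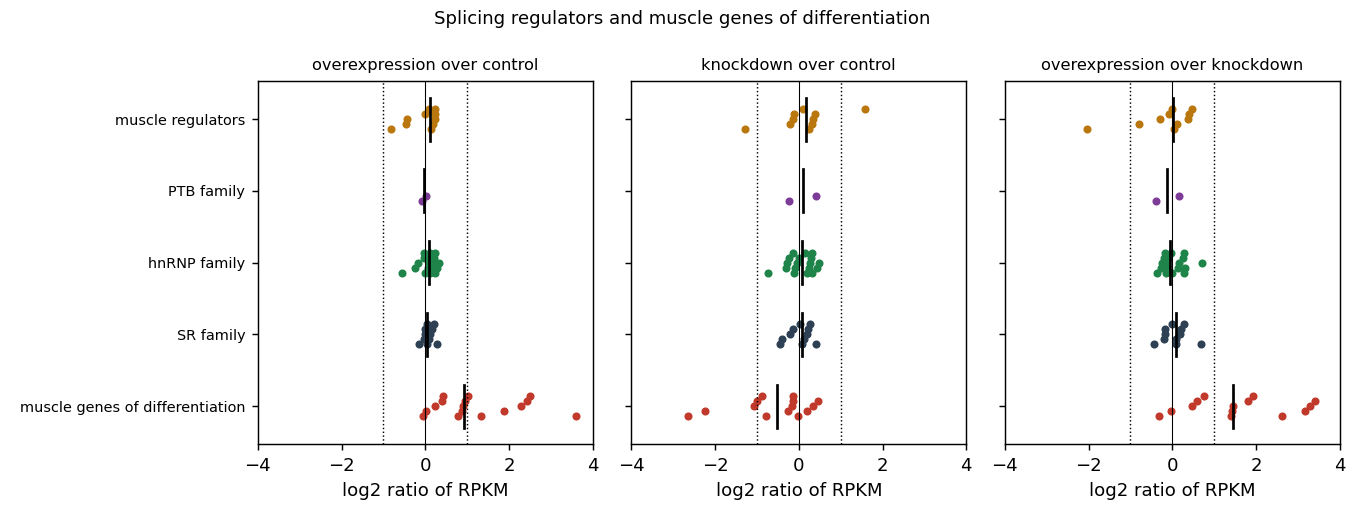
Log2 ratio of RPKM of each tested gene (points) in the muscle regulators, the PTB, hnRNP and SR families and the muscle genes of differentiation, in each comparison, with the median of each set as a vertical black bar and 2-fold as dotted lines. The medians of the splicing families lie near 0, and that of the differentiation genes is 0.93, −0.52 and 1.44 in the 3 panels from left to right (2 of its genes listed at 0 with knockdown are counted in the median of the middle panel but not drawn, and have no value in the right panel).

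The rest of the splicing machinery was described by lists. Of 9 tested kinases of SR proteins and related genes, of which 1 is Sfrs18, and of 14 tested SR-related proteins, none passed 2-fold in either line. Of all genes, 7.11% passed it with overexpression and 7.58% with knockdown. The medians of the kinases were 0.17 with overexpression and 0.26 with knockdown, and those of the SR-related proteins were 0.06 and 0.21. Of the 32 tested genes of the tri-snRNP and catalytic core, 1 was higher with overexpression (3.12%, beside 3.64% of all genes) and none passed 2-fold with knockdown (medians 0.12 and 0.05). Prpf19, a ubiquitin ligase of the spliceosome, was at 14.0, 8.99 and 15.8 RPKM in the overexpression, knockdown and control libraries, 0.569 of the control with knockdown (0.384 to 0.823). Sart3, a recycling factor of the U4/U6 particle, was at 11.5, 5.79 and 7.12 RPKM, with a direct ratio of overexpression to knockdown of 1.99 (1.35 to 2.98).

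Of 14 tested genes that recognise the branch point and the 3' splice site, overexpression put 3 past 2-fold above the control and knockdown none, or 21.4% of the list beside 3.64% of all genes higher with overexpression, with medians of −0.08 and −0.16. U2af1, the small subunit that reads the AG of the 3' splice site, was at 9.75, 6.56 and 3.80 RPKM from 20, 12 and 19 reads, 2.56 times the control with overexpression (1.30 to 5.08). It was the only one of the 3 with a mean of at least 5 RPKM, and the next ratio at that level was Sf3a2 at 1.64 (1.18 to 2.27). More genes of the whole table passed 2-fold at low level. The shares of this list and of the snRNP proteins below were not compared with genes of like level, so an excess was not tested. Of 24 tested snRNP proteins, 1 was lower with overexpression (4.17%, beside 3.47% of all genes) and 3 were higher with knockdown (12.5%, beside 3.38% of all genes), with medians of 0.16 and 0.03. Snrpe, a protein of the Sm ring, was at 20.3, 29.2 and 13.5 RPKM and at 2.17 of the control with knockdown (1.26 to 3.70). Lsm7, also among the 3, was at 2.09 of the control from 13 and 17 reads, with an interval that included 1 (0.933 to 4.57). Of 10 factors of nonsense-mediated decay, 1 was at least 2-fold lower with overexpression (10.0%, beside 3.47% of all genes) and none passed 2-fold with knockdown. The medians were −0.09 and −0.19. Upf1, the helicase of that pathway, was at 4.53, 4.96 and 6.38 RPKM and at 0.710 of the control with overexpression (0.496 to 0.999).

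Annotated transcripts were counted as a feature that the choice by symbol had not used. In GENCODE, 6 of 12 SR genes, 5 of 20 hnRNP genes, 5 of 14 muscle regulators and 1 of 2 PTB genes had at least 1 transcript classed as a target of nonsense-mediated decay, together 35.4% of members, or 36.6% of the 41 tested members, beside 16.9% of the 9965 tested protein-coding genes. All members together had a higher median number of annotated transcripts per gene than these protein-coding genes. The shares were not compared at a like number of transcripts, so an excess among members was not tested. Transcripts with a retained intron were annotated for 36.6% of tested members and 35.8% of these protein-coding genes. RPKM values per gene do not separate such transcripts from coding ones, so a member's value is the sum of both, and no exon was measured here.

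Promoters were searched for the E-boxes CAGCTG and CAGGTG (or its reverse CACCTG), which MyoD binds, on both strands, because Linc-RAM acts with MyoD according to the study's title. RefSeq promoters on GRCm38.p6, from 250 bases before to 50 after a start, matched 42 of 48 members with 70 promoters in all. CAGCTG stood in 15.7% of these beside 16.3% of 32851 promoters of all genes, and CAGGTG in 17.1% beside 20.2%. The promoters of Hnrnpab (chr11:51606832-51607131, minus strand) and Rbm38 (chr2:173021652-173021951, plus strand) are shown because these 2 genes were furthest below the control with knockdown, with E-boxes in capitals.
Hnrnpab: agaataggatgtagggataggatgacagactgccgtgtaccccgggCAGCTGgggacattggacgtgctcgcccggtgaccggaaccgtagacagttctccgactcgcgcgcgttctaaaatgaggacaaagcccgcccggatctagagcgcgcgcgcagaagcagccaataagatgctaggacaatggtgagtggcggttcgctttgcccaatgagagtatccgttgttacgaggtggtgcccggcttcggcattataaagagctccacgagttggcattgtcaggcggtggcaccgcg
Rbm38: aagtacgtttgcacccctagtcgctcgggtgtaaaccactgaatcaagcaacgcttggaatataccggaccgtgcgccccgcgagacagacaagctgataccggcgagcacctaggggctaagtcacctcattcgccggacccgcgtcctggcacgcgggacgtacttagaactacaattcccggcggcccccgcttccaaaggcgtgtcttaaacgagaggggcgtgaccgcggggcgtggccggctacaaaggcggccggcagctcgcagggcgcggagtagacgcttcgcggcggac
The Hnrnpab window held 1 CAGCTG and the Rbm38 window held neither motif. A match is a run of letters and not a bound site.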

How the data were processed

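The RPKM values were deposited by the authors, 1 for each gene in each library, after mapping to mm9 by TopHat and gene coverage by DEGSeq. The submitters' processing notes name TopHat 1.4.1. The sources used here do not give annotation, gene lengths, strand setting or the treatment of multiply mapped reads. The read total of each library was found as the total at which the most low genes came out as 1 to 10 reads at a GENCODE length (857, 903 and 773 genes for overexpression, knockdown and control). A gene's reads came from a GENCODE length, or otherwise at the smallest whole length from 200 bases, that gave whole reads in all 3 libraries within a relative tolerance of 1e-05, so reads are lower estimates and intervals are if anything too wide. Intervals are 95% and cover counting error only. No pseudocount was added before taking ratios. Genes needed a mean of at least 1 RPKM and a value above 0 in the library divided by.

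A call was a ratio of at least 2 or at most 0.5. Members, lists and comparisons were chosen with earlier results of these data known. Muscle and PTB members were all described. General members were named if among the 3 most abundant of a family, past 2-fold, or among the 3 highest or lowest ratios at a mean of at least 5 RPKM. At most 2 genes of each other list were named. The steps were tested on simulated data. Alternatives were other filters, added constants, scalings, thresholds and the placing of the PTB genes. Coding sequences were aligned to NCBIM37 (mm9) with minimap2 2.31. Coordinates without another build are mm9. Scripts ran in Python 3.11.15 with scipy 1.17.1, numpy 2.4.6 and pandas 2.3.3, and plots were drawn with matplotlib 3.10.9.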

Additional observations from a re-analysis of the deposited data

How the results depend on the processing

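Counts of members past 2-fold depended on the filter and the threshold. With every member above 0 in both libraries kept, the counts were 2 in overexpression over control, 6 in knockdown over control and 2 in overexpression over knockdown, in place of 0, 2 and 1. With a mean of at least 5 RPKM required, the counts were 0 in knockdown over control and 0 in overexpression over knockdown. With 1 RPKM added, 1 member (Rbm38) passed 2-fold in knockdown over control. At 1.5-fold there was 1 member in overexpression over control and there were 4 in overexpression over knockdown, of which 3 also had an interval that left out 1. By the interval alone, an alternative chosen after seeing the data, the counts were 7, 15 and 10. The median log2 ratio with knockdown was 0.06 for muscle regulators at a mean of at least 5 RPKM and 0.13 for general genes with no filter, in place of 0.18 and 0.07. The other scalings, the other added constant and the placing of the PTB genes moved no median beyond the counting interval of the set's summed reads. For 27 named members, all 474 values under alternatives lay within the gene's own counting interval, and no 2-fold call changed sign. This outcome was largely fixed in advance and is no check of a member's value. A filter leaves the ratio of a gene as it was, an added constant draws it toward 1, and the scalings moved ratios little. No replicate could be left out with 1 library per condition. No paired analysis was possible because each condition has 1 library and the labels give no replicate numbers. Depth limits members with few reads, such as Celf5, Rbm24, Celf4 and Hnrnph3. Leaving out Mylpf or Celf5, requiring a mean of at least 5 RPKM of the differentiation genes and counting transcripts over tested members were also chosen after seeing the data.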

Other observations

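Among 21 tested splicing regulators of other families, 1 was at least 2-fold lower with overexpression (4.76%, beside 3.47% of all genes) and 1 was lower with knockdown (4.76%, beside 4.19%). The medians were −0.06 and 0.05 on the log2 scale. Khdrbs1, which encodes the STAR protein Sam68, was at 24.8 RPKM with overexpression, 35.1 RPKM with knockdown and 21.9 RPKM in the control. The knockdown library was the high one, at 1.61 of the control (1.33 to 1.94), and the direct ratio of overexpression to knockdown was 0.706 (0.561 to 0.886). Rbpms2, an RNA binding protein of smooth muscle and heart, was below the control in both lines at 8.98, 8.17 and 15.1 RPKM, with ratios of 0.593 (0.402 to 0.854) and 0.539 (0.352 to 0.802). Msi2, a Musashi protein of progenitor cells, was above the control in both lines at 6.44, 6.65 and 3.84 RPKM, with ratios of 1.68 (1.26 to 2.21) and 1.73 (1.29 to 2.30). Ddx17, an RNA helicase that works with MyoD and hnRNP proteins, was at 58.2, 76.5 and 67.6 RPKM, with a direct ratio of overexpression to knockdown of 0.760 (0.694 to 0.833). Both lines share the control library, so their positions relative to it are not independent.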
